A study of Homo sapiens with 4 samples.

Results

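The 6 mature strands of miR-132, miR-212 and miR-22, miRNAs of the chromosome band 17p13, were followed by small-RNA sequencing in HCT116 cells, an established line from a human colorectal carcinoma, which carried an inducible means of lowering SUMO conjugation. The strands were chosen by name: every row of the table named miR-132, miR-212 or miR-22, both arms, gave 6 of 1345 rows. The grouping was made with the difference between plus and minus libraries already known, so that difference is given as a description, and no count of strands past a threshold is read as a result. SAE2, encoded by UBA2, is the catalytic subunit of the enzyme that activates SUMO, a small protein attached to other proteins. The plus group holds 2 libraries, replicate 1 labelled sh-plus and replicate 2 labelled sh2-plus, and the minus group holds 2, replicate 1 labelled sh1-minus and replicate 2 labelled sh2-minus. All groups are HCT116 cells carrying an inducible short hairpin RNA (shRNA) against SAE2, and sh1 and sh2 are independent shRNAs in separate lines. Plus and minus are read as with and without doxycycline, the inducer, although the protocol of 3 days with the drug is worded alike for every library. Cells treated with doxycycline but lacking an SAE2 shRNA were not analysed here, so an effect of the drug itself cannot be told apart from that of SAE2. Where nothing else is said, a value is a normalised read count, made by the submitters, and errors are SD over 2 libraries of a group, which come from separate lines.

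miRNAs are cut from hairpin precursors that hold a 5p and a 3p strand, and the strand loaded into an Argonaute protein lowers the output of mRNAs that pair with its seed, bases 2 to 8. The miR-132 and miR-212 hairpins come from 1 primary transcript, best known as a target of CREB in neurons, where it responds to activity and growth factors. miR-22 has a separate non-coding host gene, MIR22HG, is widely expressed, and is linked to growth control and hormone receptor signalling.

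The mature sequences, from RefSeq (GRCh38.p14), are shown because they separate strands that share a seed from those that do not. Capitals mark the seed, and all 6 strands were matched by name.
miR-132-3p: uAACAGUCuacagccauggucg
miR-212-3p: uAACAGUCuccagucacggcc
miR-132-5p: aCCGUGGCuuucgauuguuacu
miR-212-5p: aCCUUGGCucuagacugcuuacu
miR-22-3p: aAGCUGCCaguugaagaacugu
miR-22-5p: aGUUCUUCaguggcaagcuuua

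miR-132-3p and miR-212-3p have the same seed and are alike in their first 9 bases, with 17 of 21 aligned positions identical, so full-length reads of the strands differ. Among 2370 mature names in RefSeq, no other miRNA had that seed, and the seeds of miR-132-5p, miR-212-5p and both miR-22 strands were shared by none. The 5p strands of miR-132 and miR-212 matched at 14 of 22 positions. None of the 6 rows had the same 4 values as another row of the table.

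The hairpins of miR-132 and miR-212 are given, with the mature strands in capitals, to give their arrangement in the shared transcript. The MIR22 hairpin was not found among the reference sequences used.
MIR132: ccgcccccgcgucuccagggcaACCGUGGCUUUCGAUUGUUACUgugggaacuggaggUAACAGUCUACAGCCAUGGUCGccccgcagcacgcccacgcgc
MIR212: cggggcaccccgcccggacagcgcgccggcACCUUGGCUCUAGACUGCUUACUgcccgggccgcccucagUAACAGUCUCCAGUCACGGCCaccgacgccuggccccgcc

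In GENCODE 29 on GRCh38, MIR132 lies at chr17:2049908-2050008 and MIR212 at chr17:2050271-2050380, both on the minus strand and with 262 bases between them, and no other annotated gene overlaps them. MIR22 lies at chr17:1713903-1713987 on the same strand, about 336 kb from MIR132. It falls within an exon in all 19 annotated transcripts of MIR22HG. The deposited table holds no coordinates, so these positions come from the reference alone.

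The MIR22HG promoter, chr17:1716161-1716460 on the minus strand of GRCh38.p14, is shown for the host gene of miR-22. Promoters of MIR132 and MIR212 were not found among the reference sequences used, so their shared transcript was not searched for motifs. It spans 250 bases before and 50 after the RefSeq start. In GENCODE 29 the gene spans chr17:1711493-1717174, so this window lies within it and stands for the RefSeq start only. Capitals mark matches to TGACG, the half-site of the CREB motif, and CCAAT, on either strand.
MIR22HG: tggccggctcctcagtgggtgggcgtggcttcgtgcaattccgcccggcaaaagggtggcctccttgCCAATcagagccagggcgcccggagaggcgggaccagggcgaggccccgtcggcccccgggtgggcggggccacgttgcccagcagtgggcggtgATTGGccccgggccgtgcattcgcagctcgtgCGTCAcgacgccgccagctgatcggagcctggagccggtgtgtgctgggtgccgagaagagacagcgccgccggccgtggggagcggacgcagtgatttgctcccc

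The window held 1 TGACG match and 2 CCAAT matches, which do not overlap, and no full TGACGTCA. Of 35116 RefSeq promoters of this window, 24.6% held TGACG, 34.6% held CCAAT and 1.85% held TGACGTCA, so these matches are common and say nothing of binding.

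After the submitters' scaling, normalised counts summed to between 9700472 and 10519207 per library, which does not show how even the libraries were before it. A step in the low values was searched for only near 1 normalised count, so a very different worth of a read could not be found. Within that range, 1 read was put at about 1 normalised count and the depth at 9566036 to 10297804 reads. A floor of 3 reads then lay between 2.84 and 3.08. Every member stood above this floor in each library. Markers fixed for colorectal epithelium, from which the line derives, and for other cell types were compared over the libraries. The 8 colorectal epithelium markers summed to 317791 to 317898 in plus and 268904 to 279543 in minus libraries, and 5 of the 8 tested rose, where 13.4% of all 709 miRNAs tested rose and 15.1% fell (limma, adjusted p under 0.05). The 7 blood markers summed to 1027 to 1205 in plus and 995 to 1212 in minus libraries and none of the 4 tested passed, with miR-144-3p listed at 0 in replicate 2 of each group. The 7 neuron markers summed to 58272 to 63878 in plus and 48017 to 50391 in minus libraries, most of it from miR-9 and miR-128, and 2 of the 6 tested, the miR-9 strands, rose; the neuron-defining miR-124-3p was at 31.8 and 22.5 in plus and 13.1 in each minus library. The 5 stroma markers summed to 13455 to 16189 in plus and 15960 to 16012 in minus libraries, with 1 higher and 1 lower of the 4 tested. The part of these markers in the results below was not tested.

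miR-132-3p, the strand of the shared transcript with the highest level, was higher in plus libraries. It stood at 528 and 518 in plus replicates 1 and 2, against 315.5 and 337 in minus replicates 1 and 2. Both plus libraries lay above both minus libraries, and the plus values were close to each other. The means were 523 ± 7.42 in plus and 326 ± 15.3 in minus libraries (SD, n = 2 each), a ratio of 1.60 and a log2 difference of 0.68 with a standard error of 0.14. Here and below, log2 differences are plus minus minus on the log2(value + 1) scale, with standard errors from limma, a linear model that shares variance among miRNAs, fitted to 709 miRNAs whose mean level reached 10. The RNA was taken from whole cultures, so a change in the share of cells with a miRNA cannot be told apart from a change in its amount per cell.

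The partner strand miR-132-5p had the smallest log2 difference of the set over all 4 libraries. It was at 262 and 215 in plus and at 193 and 177.5 in minus libraries. The groups did not overlap, and plus replicate 2 lay nearer to minus replicate 1 than to plus replicate 1. The means were 238 ± 33.6 in plus and 185 ± 10.6 in minus libraries (SD, n = 2 each), a ratio of 1.29 and a log2 difference of 0.36 with a standard error of 0.16.

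Both strands of miR-212 were expressed at a low level and were higher in plus libraries. miR-212-3p, which has the seed of miR-132-3p, was at 49.3 and 56.1 in plus and at 34.3 and 24.4 in minus libraries. Its means of 52.7 ± 4.82 in plus and 29.3 ± 6.99 in minus libraries (SD, n = 2 each) gave a ratio of 1.80 and a log2 difference of 0.84 with a standard error of 0.29. The plus libraries were the higher ones and the minus libraries differed by more between themselves than the plus libraries did.

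miR-212-5p was at 44.1 and 41.85 in plus and at 22.2 and 26.4 in minus libraries. The groups were well apart, with means of 43.0 ± 1.62 in plus and 24.3 ± 2.95 in minus libraries (SD, n = 2 each). The ratio was 1.77 and the log2 difference 0.80 with a standard error of 0.31. At this level the reads are few: about 103 against 60 reads of miR-212-3p, a ratio of 1.80 with a 95% exact binomial (Clopper-Pearson) interval of 1.30 to 2.52, and about 84 against 50 reads of miR-212-5p, a ratio of 1.76 (1.23 to 2.56), plus against minus summed over 2 libraries each. These intervals cover counting error only, and reads were not collapsed to molecules.

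miR-22-3p was by far the most abundant strand of the set and was higher in plus libraries. It stood at 46850 and 37371 in plus replicates 1 and 2 and at 27296 and 25796 in minus replicates 1 and 2. The plus libraries were apart from the minus libraries but also from each other, with replicate 1 the higher. The means were 42110.5 ± 6703 in plus and 26546 ± 1061 in minus libraries (SD, n = 2 each), a ratio of 1.59 and a log2 difference of 0.66 with a standard error of 0.09. That error leans on variance shared among miRNAs and not on these replicates alone. Without the mean-variance trend it was 0.16, while the standard errors of the other strands became smaller. Among all rows it ranked 45 and 47 in the plus and 51 and 50 in the minus libraries.

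miR-22-5p, the minor strand of that hairpin, had the largest log2 difference of the 6 over all 4 libraries, though not within each pair. It was at 307 and 302 in plus and at 159 and 147 in minus libraries. Here the plus libraries nearly coincided, unlike for miR-22-3p, at about 299 and 296 reads. With 2 libraries, such closeness is a poor measure of spread, and nothing is read from it. The means were 305 ± 3.53 in plus and 153 ± 8.57 in minus libraries (SD, n = 2 each), a ratio of 1.99 and a log2 difference of 0.99 with a standard error of 0.16.

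**Figure D1:**
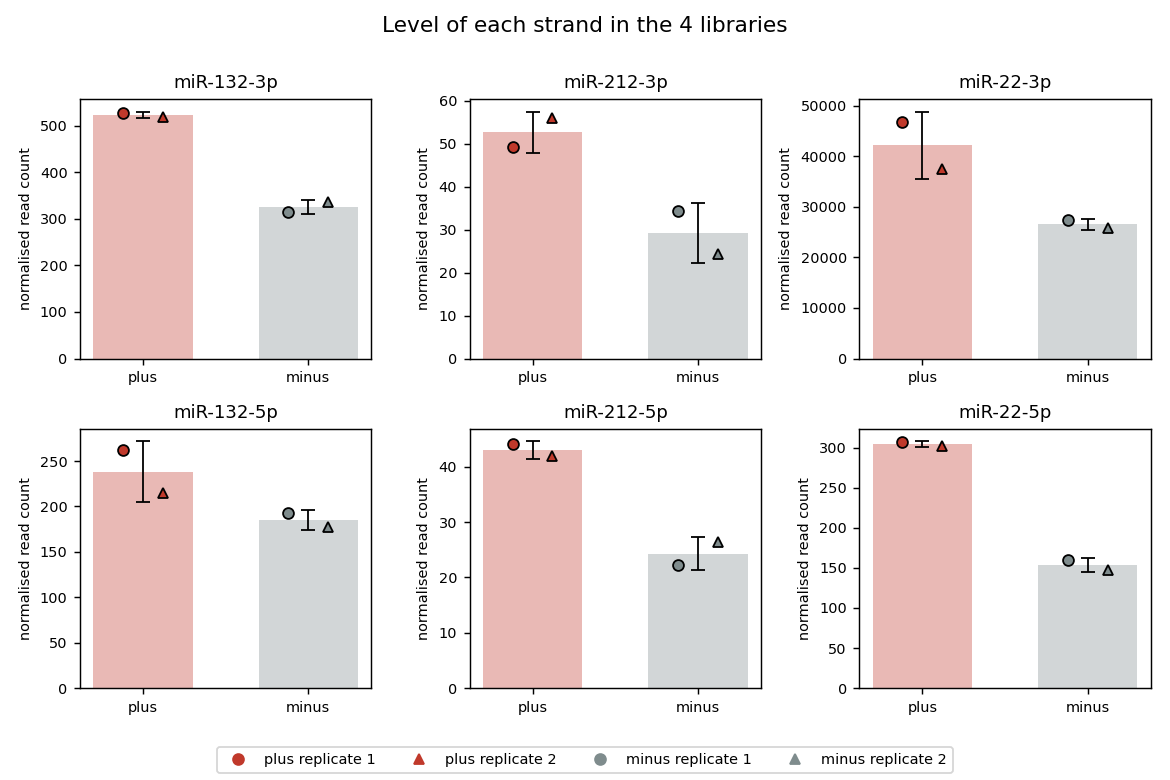
Normalised read count (linear axis from 0, own scale per panel) of each strand in plus (red) and minus (grey) libraries, with points for replicates, bars for means and error bars for SD (n = 2 each). In all 6 panels both plus libraries lie above both minus libraries, and the ratio of the means is lowest for miR-132-5p, at 1.29.

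By level, miR-22-3p came first and miR-132-3p next in every library. Below them the order differed between groups: miR-22-5p, at 307 and 302, was above miR-132-5p, at 262 and 215, in plus libraries, and below it in minus libraries, at 159 and 147 against 193 and 177.5. miR-212-3p and miR-212-5p came last, and their values overlapped in the minus libraries. Read counts of different miRNAs also depend on how well each sequence is captured, so this order is one of reads. The strands with the shared seed, miR-132-3p and miR-212-3p, summed to 578 and 574 in plus and 349.8 and 362 in minus libraries, and miR-132-3p gave 90.2% to 93.3% of that sum.

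Of the 6 strands, 5 were past the limma threshold of 0.05, after Benjamini-Hochberg adjustment over all miRNAs tested, as higher in plus, all but miR-132-5p, beside 13.4% of the 709 miRNAs tested in that direction (15.1% as lower, 28.5% in both). All 6 had both plus libraries above both minus libraries, as did 29.1% of all miRNAs tested. As the strands were chosen with this contrast known, nothing is read from these counts. Their median log2 difference was 0.74, against −0.03 over all miRNAs tested, and in order of log2 difference they came at places 25 (miR-22-5p), 35 (miR-212-3p), 36 (miR-212-5p), 52 (miR-132-3p), 55 (miR-22-3p) and 128 (miR-132-5p) of 709. The number past the threshold was 4 with the shRNA line as a replicate block, where miR-212-5p missed it, beside 14.5% of all miRNAs called higher. With plus replicate 1 left out it was 0 (4 at an unadjusted limma p under 0.05) beside 0.846%, and with plus replicate 2 left out it was 1, miR-22-3p, beside 0.987%. Leaving out minus replicate 1 gave 4 beside 8.04%, and leaving out minus replicate 2 gave 3 beside 7.9%. All 6 passed under median-ratio scaling, beside 17.1%, 4 under equal library totals, beside 9.59%, and 2 under quantile normalization, beside 6.63%. None passed without a filter on low values, beside 0.372%, or without the mean-variance trend, beside 0.705%, although 5 had an unadjusted limma p under 0.05 in each. With a minimum mean of 100, 3 of the 4 strands tested passed, beside 16.8%. Over all miRNAs, 95 were higher and 107 lower, a split that became 121 and 83 under median-ratio scaling, and the log2 differences of the 6 strands were above 0 in each alternative in which they were tested.

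The lines carry different shRNAs, and the difference was also taken within each line. The replicate 2 libraries are both labelled sh2, and plus replicate 1, labelled without a number, was placed with sh1 by elimination. With 1 library per line and condition there is no test. All 6 strands were higher in the plus library of each pair. The lines were most alike for miR-22-5p, with log2 differences of 0.94 in the replicate 1 pair and 1.03 in the replicate 2 pair, and for miR-132-3p, with 0.74 and 0.62. They were least alike for miR-212-3p, with 0.51 and 1.17, while its partner miR-212-5p had the larger value in the replicate 1 pair, 0.96 against 0.65. The miR-212 strands thus passed miR-22-5p in 1 pair each, and with minus replicate 1 left out miR-212-3p was at 1.08 and miR-22-5p at 1.05. The miR-212 values rest on few reads. For miR-212-3p these were about 48 against 34 in the replicate 1 pair and 55 against 26 in the replicate 2 pair. For miR-212-5p they were about 43 against 22 and 41 against 28. Counting error was not separated here from a difference between lines. miR-22-3p had 0.78 and 0.53 and miR-132-5p had 0.44 and 0.27 in the replicate 1 and replicate 2 pairs.

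**Figure D2:**
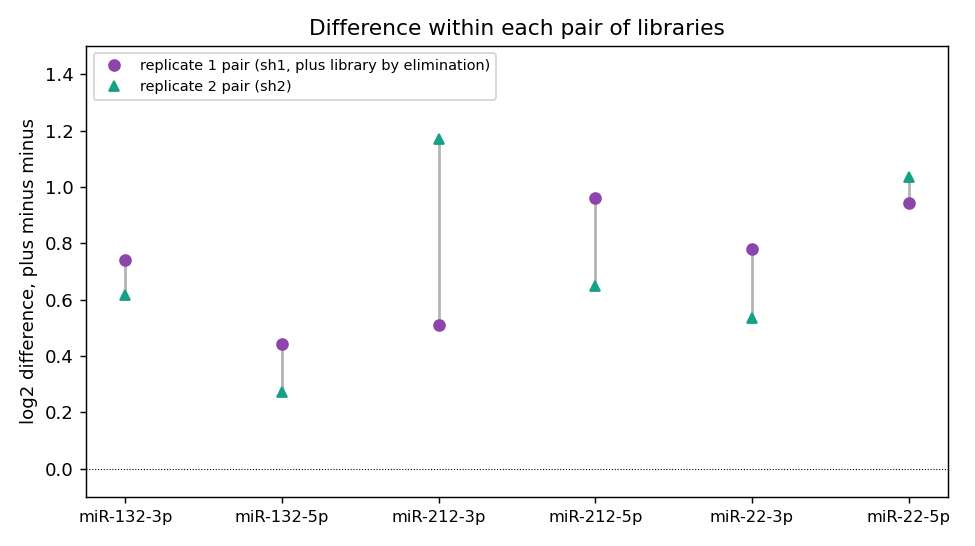
Log2 difference, plus minus minus, on the log2(value + 1) scale within the replicate 1 pair (circles, read as sh1) and the replicate 2 pair (triangles, sh2), for each strand. All 12 points lie above 0, and the pairs are farthest apart for miR-212-3p, at 0.51 and 1.17. These 2 points rest on about 48 against 34 and 55 against 26 reads.

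Strands of 1 hairpin arise together, and their ratio shows whether they differed alike. For miR-132 the 3p strand exceeded the 5p strand 2.02- and 2.41-fold in plus and 1.64- and 1.90-fold in minus libraries. For miR-212 the strands were nearly equal, at 1.12 and 1.34 in plus and 1.54 and 0.926 in minus libraries. For miR-22 the 3p strand exceeded the 5p strand 152- and 124-fold in plus and 171- and 175-fold in minus libraries, so that it made up 99.2% to 99.4% of the hairpin's reads in each library. The log2 ratio of 3p over 5p was thus higher in plus for miR-132, by 0.32, lower in plus for miR-22, with a difference of −0.33, and overlapping between groups for miR-212, with a difference of 0.04. Ratios without overlap between plus and minus were common, at 51.4% of the 183 hairpins with both strands tested, and the median size of the difference over these was 0.21.

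**Figure D3:**
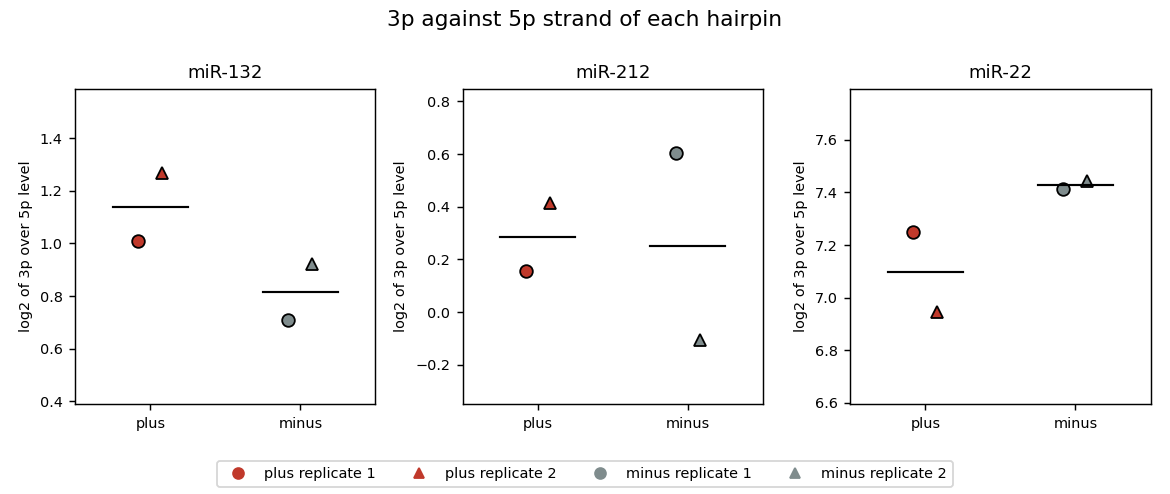
Log2 of the 3p over the 5p level of each hairpin in plus (red) and minus (grey) libraries, with bars at the mean of 2 libraries; each panel spans the same range of 1.2 log2 units at its own height. The plus libraries lie above the minus libraries for miR-132 and below them for miR-22, and the groups overlap for miR-212.

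Within the shared transcript, miR-132-3p exceeded miR-212-3p 10.7- and 9.23-fold in plus and 9.20- and 13.8-fold in minus libraries, and the groups overlapped. The ratio of the 5p strands, miR-132-5p over miR-212-5p, was 5.94 and 5.13 in plus and 8.68 and 6.73 in minus libraries. It was lower in both plus libraries, a separation that, with 2 libraries a group, 51.4% of the 3p over 5p ratios also had, and its denominator rests on about 43 and 41 reads in plus and 22 and 28 reads in minus libraries. miR-22-3p exceeded miR-132-3p 88.7- and 72.2-fold in plus and 86.5- and 76.5-fold in minus libraries, so the ratio of these main strands of separate genes overlapped between groups as well.

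Of 15 further names of 17p in the table, 10 were tested, of which 0 rose and 2 fell (limma, adjusted over all miRNAs; at an unadjusted p under 0.05, 0 were higher and 3 lower). Over all miRNAs tested, 13.4% were higher and 15.1% lower, and 10 names are too few to say anything particular of the chromosome arm. The list was chosen with earlier results of these data known, so the adjusted p of its members are no independent evidence. Their log2 differences ran from −0.48 to 0.24 with a median of −0.11, which was 0.03 without plus replicate 2. The falls were miR-4521, at 4203 and 4234 in plus and 6035 and 5718 in minus libraries (log2 difference −0.48, limma adjusted p = 5.48e-05), and miR-33b-3p, at 672 and 749 in plus and 906 and 957 in minus libraries (log2 difference −0.39, limma adjusted p = 0.0101). miR-33b lies within SREBF1, a regulator of lipid synthesis genes. The other strand of that hairpin, miR-33b-5p, did not pass (log2 difference −0.26, limma adjusted p = 0.546). It was at 26.8 and 31.7 in plus and 36.3 and 34.0 in minus libraries. The call of miR-33b-3p was lost with any 1 of the 4 libraries left out, and that of miR-4521 with either plus library left out. Over these the log2 difference ran from −0.47 to −0.31 for miR-33b-3p and from −0.52 to −0.44 for miR-4521. miR-195-5p, of the seed family of miR-15 and miR-16, did not pass, at 773 and 798 in plus and 728 and 687 in minus libraries, and neither did its cluster partner miR-497-5p, at 101 and 79.7 in plus and 82.7 and 112 in minus libraries. The strands of miR-324 and miR-744 and miR-1180 did not pass either, with log2 differences from −0.19 to 0.24.

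miRNAs listed as induced by CREB, AP-1, NF-kB, hypoxia or growth stimuli were described beside the set, since miR-132 and miR-212 belong to that class. Whether each listed name is so induced was not checked. Of 15 names, 14 were tested, of which 9 rose, none fell and 5 did not pass, beside 13.4% higher over all miRNAs, with a median log2 difference of 0.41. The names are not all independent, as they include both strands of miR-9 and cluster partners such as miR-23a and miR-27a. The list was drawn up with rises of several of its members known. Neither its count nor the adjusted p of its members below is thus independent evidence. All of its calls were lost without the mean-variance trend, and also without a filter on low values. miR-146a-5p, a brake on NF-kB signalling, was at 330 and 381 in plus and 193 and 164 in minus libraries (log2 difference 0.99, limma adjusted p = 3.05e-06). miR-27a-3p rose with a log2 difference of 0.51 and miR-23a-3p, of the same cluster, with 0.50 (limma adjusted p = 1.31e-05 and 1.20e-05). miR-9-5p, a neuronal miRNA, rose with 0.44 (limma adjusted p = 5.65e-05). miR-134 and miR-124-3p, both activity-linked in neurons, had log2 differences of 1.15 and 0.97 and did not pass (limma adjusted p = 0.0529 and 0.0514). Both differences rest on few reads. miR-134 was at 16.4 and 23.4 in plus and 6.07 and 11.3 in minus libraries. For miR-124-3p the values were 31.8 and 22.5 in plus and 13.1 in each minus library. The hypoxia miRNA miR-210, at 1822 and 1967 in plus and 1522 and 2081 in minus libraries, and miR-21-5p, with a log2 difference of 0.13, did not pass, and miR-155-5p was below the level tested, at 2.04 and 1.02 in plus and 1.01 and 0 in minus libraries. The number of rises was 0 with either plus library left out (7 at an unadjusted limma p under 0.05 in each case) and 6 with either minus library left out.

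**Figure D4:**
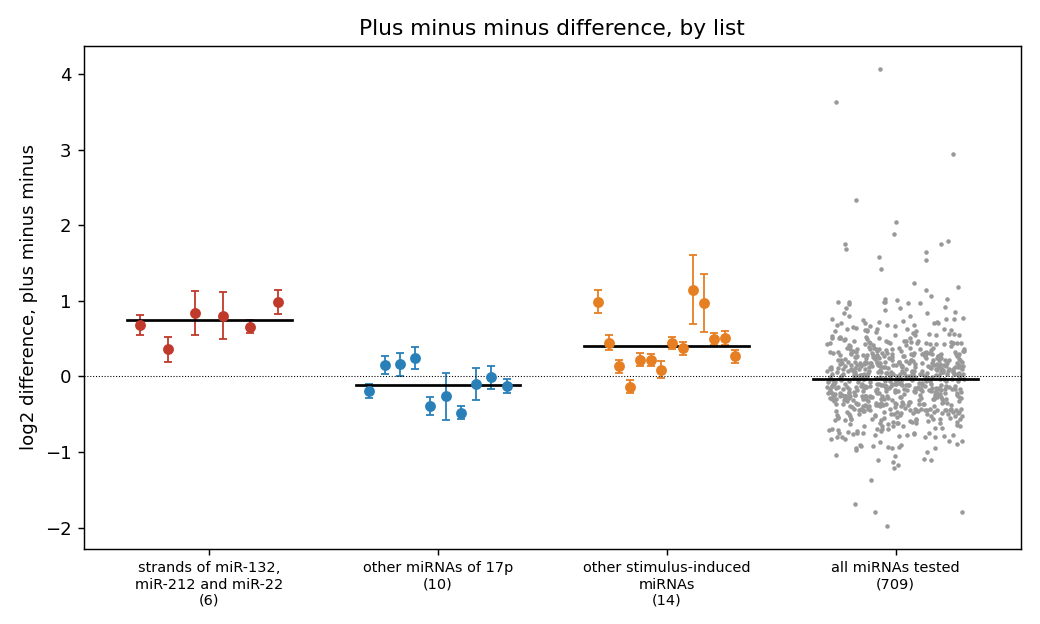
Log2 difference, plus minus minus, on the log2(value + 1) scale, of the 6 strands, 10 other miRNAs of 17p, 14 other stimulus-induced miRNAs (points with limma standard errors) and all 709 miRNAs tested (grey), with bars at the medians. The medians lie at 0.74, −0.11, 0.41 and −0.03 from left to right.

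Profiles over the 4 libraries were compared by the Euclidean distance between centred log2 values, among miRNAs with a mean of at least 100. The nearest to miR-132-3p were miR-182-5p, miR-34a-5p and miR-193b-3p, at distances of 0.0702, 0.110 and 0.116, with 384 compared. The nearest to miR-212-3p were miR-500b, miR-146a-5p and miR-4461, at 0.215, 0.231 and 0.262, with 386 compared. The nearest to miR-22-3p were miR-361-3p, miR-27a-3p and miR-331-3p, at 0.109, 0.147 and 0.154. miR-132-3p, from the same transcript, came at place 17 for miR-212-3p with a distance of 0.459, behind miR-22-5p, from another transcript, at place 6 with 0.329. miR-212-3p itself, at a mean of 41.0, was below the level asked of the others. Its profile rests on about 48 and 55 reads in plus and 34 and 26 in minus libraries. Its distances thus hold counting error, and nothing is read from these places about shared transcription. Between miR-132-3p and miR-22-3p the distance was 0.246, which put miR-22-3p at place 19 for miR-132-3p and miR-132-3p at place 11 for miR-22-3p. No miRNA was among the nearest 3 of more than 1 of the 3 strands.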

How the data were processed

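Small RNA of 4 HCT116 libraries was sequenced. Per the labels' protocols, RNA was taken after 3 days with doxycycline, and an Illumina small-RNA kit, changed to add random bases at an adaptor, served for library making. The deposited table holds 1 signal value per mature miRNA and library, judged from its steps to be a read count that the submitters scaled between libraries by a method not given in the sources used here. Reads were trimmed with cutadapt, per the file headers, and the submitters' processing notes list TopHat2 2.0.8b, edgeR and the builds hg19 and GRCh37, giving no role to any. The counter and the miRNA annotation are likewise not given in the sources used here. One shRNA is sh4 in the headers and sh2 in the titles; library number and index tied each column to its sample.

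Plus was set against minus on log2(value + 1) with limma 3.58.1 (R 4.3.3), using a mean-variance trend, two-sided, with Benjamini-Hochberg adjustment over 709 miRNAs with a mean of at least 10, and a threshold of 0.05. With 2 libraries a group, exact permutation reaches no p below 0.333, so it was not used. The worth of 1 read was taken as the step, searched only near 1 normalised count, whose whole multiples lay nearest the values under 60. In each library 85.1% to 100% of these values fell within 0.1 of a whole multiple, too few in 1 library for a count model. Rounded reads were planned for members with a mean under 30; none was so low, and they were given for those under 50. Same-numbered libraries were paired by shRNA line from the labels (plus replicate 1 by elimination); the correlation of their deviations from the group means was 0.056. The members and lists were chosen with earlier results of these data known. The text names the 6 strands, members of the lists and, for each 3p strand, the 3 miRNAs with the nearest profile. Sequences and positions come from RefSeq (GRCh38.p14) and GENCODE 29, and were joined by name only.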

Additional observations from a re-analysis of the deposited data

How the results depend on the processing

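The direction of all 6 strands held in each alternative that tested them, and the number past the threshold did not. Under quantile normalization 2 of 6 strands passed (miR-132-3p and miR-22-5p), with 101 miRNAs called, 47 higher and 54 lower. With no filter on low values and with no trend, 0 strands passed (5 at an unadjusted limma p under 0.05 in each) and 5 miRNAs were called in all, 5 higher and 0 lower (159 and 124 lower at an unadjusted limma p under 0.05). At a minimum mean of 100, which leaves out miR-212, 3 of 4 passed. Median-ratio scaling gave log2 differences of 0.74 for miR-132-3p and 1.05 for miR-22-5p, equal library totals 0.62 for miR-132-3p, and quantile normalization 0.76 for miR-132-3p and 0.38 for miR-22-3p; the cause was not tested. With 1 library left out, a fit in which the lone library is assumed to vary like the other group, 0 to 4 strands passed, 7 to 115 miRNAs were called, 6 to 57 higher and 1 to 59 lower. The falls on 17p numbered 1 under quantile normalization, 0 with no filter or no trend (3 and 2 unadjusted), and 0 to 1 with 1 library left out (2 to 3 unadjusted). The rises among the stimulus-induced miRNAs numbered 4 under quantile normalization, 0 with no filter or no trend (8 and 7 unadjusted), and 0 to 6 with 1 library left out (7 to 9 unadjusted). With the replicate block, 216 miRNAs and 4 of the 6 strands were called, and the counts for both lists were as without it. Rounded reads with their limit of 50 and the alternatives for both lists were added after the data were seen. Depth limits miR-212, with 50 to 103 reads per strand and group.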
